A study of Arabidopsis thaliana with 8 samples.

Results

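The genes described here are the photosynthesis genes that Arabidopsis thaliana keeps in its plastid genome, measured in whole plants of 4 lines grown at low and high calcium chloride. A probe set of the Affymetrix ATH1 array was taken as a member when it names 1 gene with a plastid locus tag (ArthCp) and a symbol that starts with psa, psb, pet, atp or ndh, or is rbcL. This gave 43 members among the 69 plastid-encoded genes and the 13513 probe sets that name 1 gene. They are 5 genes of photosystem I (psa), 15 of photosystem II (psb), 6 of the cytochrome b6f complex (pet), 6 of the chloroplast ATP synthase (atp), 10 of the chloroplast NDH complex (ndh) and rbcL, the large subunit of Rubisco. All 43 passed the filter on low signals.

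Photosystem II splits water and passes electrons through the cytochrome b6f complex to photosystem I, and the proton gradient built on the way drives the ATP synthase. The NDH complex returns electrons from the stroma to the plastoquinone pool in cyclic flow around photosystem I, and Rubisco fixes carbon dioxide. Each of these complexes mixes plastid-encoded core subunits with nuclear-encoded ones, and most plastid genes are transcribed in units of several neighbouring genes, from which shorter RNAs are then cut.

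The plants came from a laboratory calcicole and a laboratory calcifuge line (the lab lines, or the calcicole and the calcifuge), a WildEcotype-high-soil-pH line and a WildEcotype-low-soil-pH line, named here the high-pH and the low-pH ecotype. Calcicole plants thrive where the soil is rich in lime, and calcifuge plants do not. Each line was grown in a growth room on sterile sand with half-strength Long Ashton nutrient solution, at 1 or at 12.5 mM CaCl2, and each of the 8 combinations was hybridised to 1 array. The labels name no accession, plant age or harvest time, and do not say how many plants made up an RNA sample.

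With 1 array per line and dose no line has a replicate within a dose, so the lines served as the replicates of the dose, and the number of arrays limits the precision. The labels number all lab arrays before all wild arrays, so origin and array numbering cannot be separated. RNA came from whole plants, in which fewer green cells and less plastid RNA per cell cannot be told apart. Signals of different probe sets are not on 1 scale, so each gene is compared with itself across arrays. The deposited signals were already scaled, to the same mean on each array once the lowest and highest 2% are set aside.

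Some array-wide values stood apart by line or array. The control probe set for cytosolic 25S ribosomal RNA read 19.8 on the calcifuge array at 12.5 mM and between 89.0 and 126 on the other 7 arrays. The ratio of the 3′ to the 5′ actin probe set was 10.4 to 16.9 on the 4 lab arrays and 1.53 to 2.67 on the 4 wild arrays, while that of ubiquitin was 1.5 to 2.57 over all 8 and that of GAPDH was 2.66 then 2.62 in the calcifuge and 1.21 to 1.71 in the other lines. Of 13 listed green tissue markers only RCA, Rubisco activase, is named by a probe set, at 3463 to 6387. The names used leave 8730 of 22746 probe sets without a gene, and 503 name several genes. A marker not named here may still be on the array. Of 15 root markers 3 are named: the summed signal was 96.0 then 234 in the calcicole, 305 then 867 in the calcifuge, 192 then 235 in the high-pH ecotype, and 278 then 386 in the low-pH ecotype, at 1 and 12.5 mM. The largest part of that sum on each array was PYK10, a root beta-glucosidase of endoplasmic reticulum bodies, and the root hair expansins EXPA7 and EXPA18 read at most 34.6 on any array.

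The plastid photosynthesis genes were lower at 12.5 than at 1 mM CaCl2 in both laboratory lines, and slightly higher on the median in both wild lines. In the calcicole 41 of 43 members were lower, with a median log2 change of -0.62, and in the calcifuge 38 of 43 were lower, with a median of -1.2. In the high-pH ecotype 3 members were lower and 40 higher, with a median of 0.15, and in the low-pH ecotype 17 were lower and 26 higher, with a median of 0.26. The medians over all 13647 probe sets tested were -0.01, 0.06, 0.01 and -0.03 in the same 4 lines. The members' share of all summed signal was 2.55% at 1 mM and 1.74% at 12.5 mM in the calcicole, 2.71% and 1.64% in the calcifuge, 2.24% and 2.4% in the high-pH ecotype, and 2.43% and 2.47% in the low-pH ecotype.

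Large changes also lay mostly in the lab lines. At least 2-fold lower at 12.5 mM were 10 members in the calcicole, against 4.15% of all probe sets tested, and 22 in the calcifuge, against 3.05%. No member was at least 2-fold lower in the high-pH ecotype, where 3.07% of all probe sets were, and 1 was in the low-pH ecotype, where 3.44% were. That member is psbN, the gene of a small photosystem II assembly protein. Both lab lines were lower in 36 of 43 members, against 26.1% of all probe sets tested. Both lab changes lay below both wild changes in 35 of 43, against 14.8%, and both lab arrays at 12.5 mM lay below all of the other 6 arrays in 25 of 43, against 5.24%. These are counts of genes that share transcripts and arrays, not of independent measurements.

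**Figure D1:**
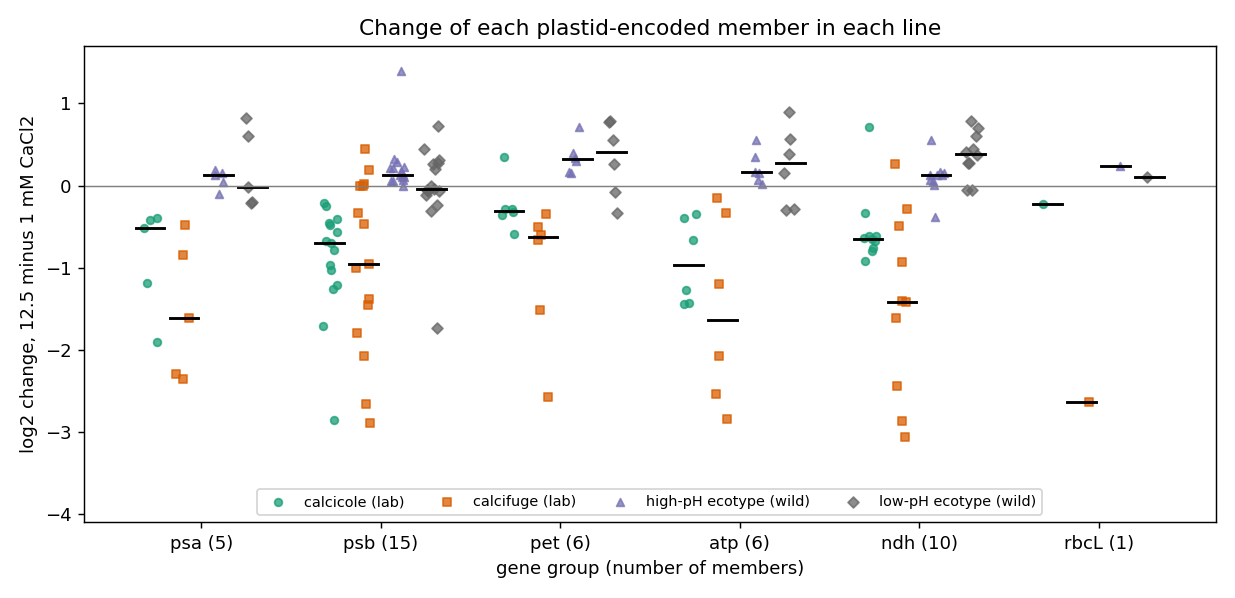
Log2 change in signal from 1 to 12.5 mM CaCl2 (vertical axis) of each of the 43 members, by gene group (horizontal axis) and line (colour and shape); black bars are medians, and there is 1 array per line and dose. The points of the calcicole and the calcifuge lie mostly below 0, with medians of -0.62 and -1.2 over all members, and those of the wild lines lie around or above 0.

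Among the photosystem II genes all 15 were lower in the calcicole, with a median of -0.7, and 11 of 15 in the calcifuge, with a median of -0.96; the wild medians were 0.13 and -0.04. In the calcifuge the 4 lowest were the genes of the reaction centre and of the inner antenna, psbA, psbC, psbB and psbD. Paired signals are given in the order 1 mM then 12.5 mM here and for the genes that follow. Going from 1 to 12.5 mM, the signal of psbC, the inner antenna protein CP43, went from 1990 to 831 in the calcicole and from 1718 to 270 in the calcifuge, and was 1682 then 1756 in the high-pH ecotype and 2246 then 2074 in the low-pH ecotype. For psbB, which encodes the other inner antenna protein, CP47, the calcicole read 498 then 150, the calcifuge 353 then 81.3, the high-pH ecotype 280 then 323 and the low-pH ecotype 448 then 514. In both genes the 2 lab arrays at 12.5 mM were the lowest of the 8, and the lab values at 1 mM lay within the range of the 4 wild arrays.

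The reaction centre gene psbD (D2 protein) had changes of -1.21 and -1.8 in the calcicole and calcifuge. The partner gene psbA (D1 protein) had -0.79 and -2.89, but its signal in the calcicole at 12.5 mM, 2060, was still above all 4 wild arrays, which read 1766 to 2006. Its lab values at 1 mM, 3563 and 3788, were the highest of the 8.

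The small subunit gene psbL had the smallest difference of the photosystem II genes between lab and wild lines, with signals of 416 then 358 in the calcicole, 465 then 466 in the calcifuge, 459 then 495 in the high-pH ecotype, and 632 then 509 in the low-pH ecotype. Its lab and wild arrays overlap, and no dose difference is shared by the lab lines. It belongs to the psbE-psbF-psbL-psbJ unit, which also encodes both cytochrome subunits of photosystem II (psbE and psbF). All 4 genes of that unit were lower in the calcicole, by log2 changes of -0.97 to -0.21, and none in the calcifuge, where the changes ran from 0.0 to 0.44. The gene psbN had the widest spread of all members, with log2 changes of -2.85, -0.34, 1.4 and -1.73 in the 4 lines, at signals of 17.7 to 225; it lies on the opposite strand between psbT and psbH and is a case in which the wild lines went opposite ways.

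Every photosystem I gene was lower at 12.5 mM in both lab lines, with medians of -0.52 in the calcicole and -1.61 in the calcifuge, against 0.13 and -0.02 in the wild lines. The gene psaC, whose protein carries the terminal iron-sulphur clusters, read 709 then 310 in the calcicole and 1239 then 252 in the calcifuge at 1 and 12.5 mM, 1097 then 1250 in the high-pH ecotype, and 860 then 1310 in the low-pH ecotype. The reaction centre gene psaA read 1459 then 385 in the calcicole, 2075 then 679 in the calcifuge, 1458 then 1358 in the high-pH ecotype, and 1061 then 1874 in the low-pH ecotype. For all 5 photosystem I genes, the 2 lab arrays at 12.5 mM were below the other 6.

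In psaA the calcicole change, a 3.77-fold lower signal, was larger than the calcifuge change, 3.05-fold, which makes it the exception among the 5. The smallest difference was in psaJ, a small membrane subunit: 4201 then 3177 in the calcicole, 4506 then 3224 in the calcifuge, 4211 then 4317 in the high-pH ecotype, and 4465 then 4394 in the low-pH ecotype. Its 2 lab arrays at 12.5 mM were about equal and the other 6 lay close together above them.

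Of the 5 groups the cytochrome b6f genes had the lab medians closest to 0, -0.3 in the calcicole and -0.63 in the calcifuge, with 0.32 and 0.41 in the wild lines. Most of the lab difference in petN, a small subunit of the complex, came from 1 line. Its signal was 246 then 202 in the calcicole, 279 then 44.4 in the calcifuge, 150 then 191 in the high-pH ecotype, and 143 then 245 in the low-pH ecotype. The calcicole array at 12.5 mM lay within the range of the wild arrays, and the calcifuge array at 12.5 mM was 5.99-fold below its own 1 mM array.

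The gene of subunit IV, petD, read 84.6 then 65.5 in the calcicole, 84.3 then 52.4 in the calcifuge, 53.9 then 89.5 in the high-pH ecotype, and 64.9 then 97.0 in the low-pH ecotype. At 1 mM both lab arrays were above both wild arrays, and at 12.5 mM both were below them. The cytochrome b6 gene petB read 4761 then 3167 in the calcicole, 5113 then 4008 in the calcifuge, 4530 then 5010 in the high-pH ecotype, and 5162 then 4105 in the low-pH ecotype. The low-pH ecotype was also lower at 12.5 mM in petB. The small subunit gene petG was the only pet member higher in the calcicole, at 241 and 308, while the calcifuge read 308 and 106.

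All 6 ATP synthase genes were lower at 12.5 mM in both lab lines, with medians of -0.97 and -1.64 against 0.16 and 0.27 in the wild lines. The gene atpI, for the membrane subunit a through which protons pass, had the largest difference between lab and wild lines of all 43 members. It read 242 then 87.3 in the calcicole, 281 then 36.9 in the calcifuge, 153 then 226 in the high-pH ecotype, and 176 then 330 in the low-pH ecotype. Its lab and wild lines thus changed places between the doses, as in petD.

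The stalk gene atpF (subunit b) read 2263 then 934 in the calcicole, 2949 then 504 in the calcifuge, 2189 then 2462 in the high-pH ecotype, and 1928 then 2535 in the low-pH ecotype. It showed the same crossing as atpI, with the lab arrays highest at 1 mM among their dose and lowest at 12.5 mM. The catalytic gene atpB (subunit beta) read 6215 then 4711 in the calcicole, 6675 then 6028 in the calcifuge, 6342 then 6439 in the high-pH ecotype, and 7033 then 5705 in the low-pH ecotype. Its groups overlap, and the largest relative differences between doses were those of the calcicole and of the low-pH ecotype.

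**Figure D2:**
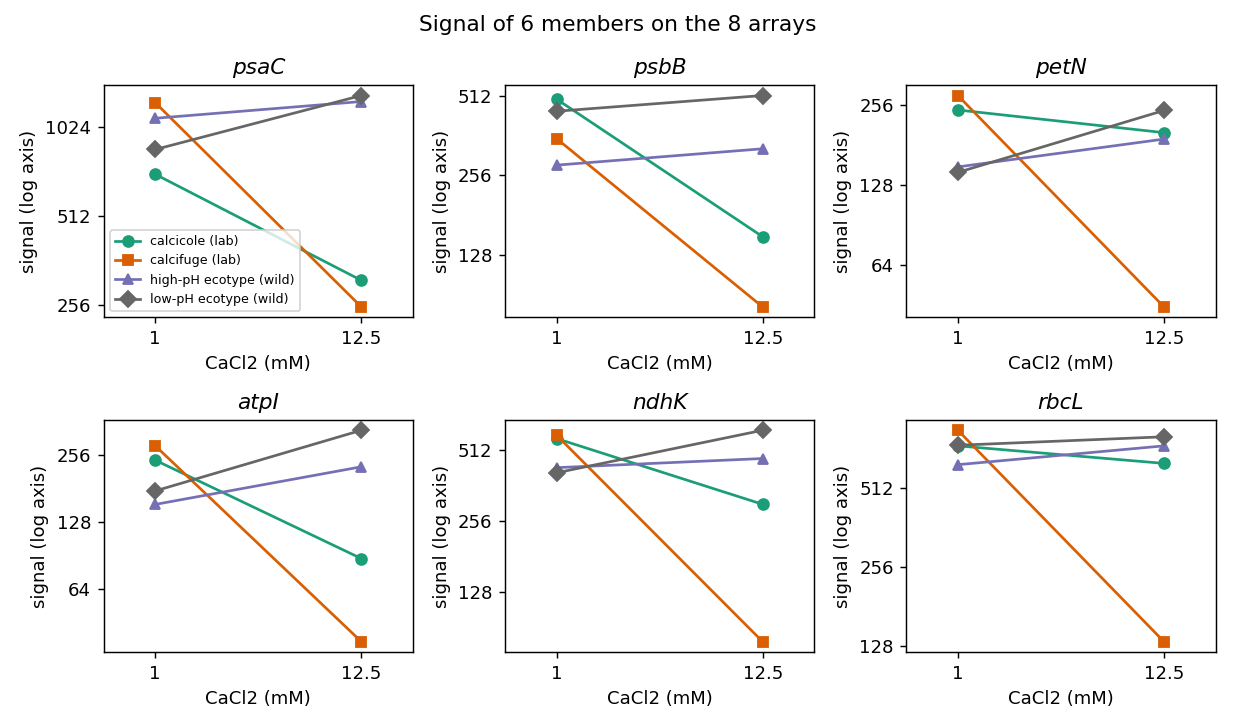
Deposited signal (vertical log axis) of 6 members at 1 and 12.5 mM CaCl2 (horizontal axis) in the 4 lines, 1 array per point. For psaC, psbB, atpI and ndhK both lab lines end below both wild lines at 12.5 mM, while for petN and rbcL the calcifuge stands far below the other 3 lines.

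Of the 10 NDH genes 9 were lower in each lab line, with medians of -0.65 and -1.41, against 0.13 and 0.39 in the wild lines. The gene ndhK read 570 then 300 in the calcicole, 589 then 78.5 in the calcifuge, 429 then 469 in the high-pH ecotype, and 408 then 618 in the low-pH ecotype. Its neighbour ndhJ read 1025 then 654 in the calcicole, 1325 then 157 in the calcifuge, 1002 then 1093 in the high-pH ecotype, and 951 then 1264 in the low-pH ecotype. Both encode subunits of the arm that faces the stroma, and the calcifuge change of ndhJ, 8.34-fold, was the largest of any member in any line.

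The gene ndhC, for a membrane subunit, is transcribed together with ndhK and ndhJ but read 1747 then 1376 in the calcicole, 1762 then 2115 in the calcifuge, 1180 then 1313 in the high-pH ecotype, and 1316 then 1595 in the low-pH ecotype. Its calcifuge signal was higher at 12.5 mM, where ndhK and ndhJ were lower. The member with the lowest mean signal among the ndh genes, ndhF, departed from the others in the calcicole, where it read 31.5 then 53.0. In the calcifuge it was lower at 12.5 mM, at 69.0 then 35.1.

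The Rubisco large subunit gene rbcL read 738 then 633 in the calcicole, 846 then 133 in the calcifuge, 626 then 738 in the high-pH ecotype, and 742 then 799 in the low-pH ecotype. The calcifuge at 12.5 mM was 6.24-fold below its 1 mM array, and the other 7 arrays lay between 626 and 846. The calcicole change of -0.22 was thus far from the calcifuge change of -2.64.

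The lab lines were compared with the wild lines in 1 fit of the dose effect within each origin, with the line as a block, in limma over the 13647 probe sets. The fitted lab response was negative in 42 of 43 members, with a median of -0.93 (range -2.14 to 0.09, psbJ being the exception), where the median over all probe sets was 0.02. The wild response was positive in 34 of 43, with a median of 0.17. The difference, lab minus wild, was negative in all 43 members, with a median of -1.13 (range -2.87 to -0.01), where the median over all probe sets was 0.04.

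No member passed an adjusted p under 0.05 in any of these 3 tests, and neither did any other probe set: limma called 0.0% of the 13647 for the lab response, 0.0% for the wild response and 0.0% for their difference. At an unadjusted p under 0.05, limma had 25 members of 1523 probe sets for the lab response, all lower, 1 member of 975 for the wild response (petD, at 0.63 ± 0.22, adjusted p = 0.607) and 24 members of 687 for the difference, all lower. For psbB the lab response was -1.90 ± 0.22 (SE; limma adjusted p = 0.11), the smallest adjusted p of the members, and the difference was -2.10 ± 0.31 (adjusted p = 0.988). For atpI the lab response was -2.14 ± 0.35 (adjusted p = 0.162). With a variance trend and robust moderation psbB passed for the lab response, at -1.90 ± 0.21 (limma adjusted p = 0.0324); over all alternatives the smallest adjusted p among the members ran from 0.0214 to 0.456.

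The error was widest for psbN, at -1.43 ± 1.15 (limma adjusted p = 0.999), a member whose wild lines went opposite ways. For rbcL the difference was -1.60 ± 0.73, for petN -1.99 ± 0.71 and for ndhJ -2.12 ± 0.73, each with a limma adjusted p of 0.988 or 0.99. Without the calcifuge line the difference was -0.39 for rbcL, -0.84 for petN and -0.91 for ndhJ, and the median difference was -0.49 instead of -1.41 for the psa genes and -0.57 instead of -0.96 for the pet genes. It was -1.13 for the atp genes and -0.89 for the ndh genes. For psbB the lines mattered less: the difference ran from -2.29 to -1.91 when any 1 line was left out. Fitted across all 4 lines with 1 shared dose effect, 38 of 43 members were lower at 12.5 mM, with a median of -0.41, and none was called; limma called 0.0147% of all probe sets, and at an unadjusted p under 0.05 it had psbC alone among the members, at -0.99 ± 0.42 (adjusted p = 0.377).

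The lab lines themselves differed in how far the members were lower. The calcifuge change lay below the calcicole change in 29 of 43 members, against 44.1% of all probe sets tested. It did so in 4 of 5 psa, 8 of 15 psb, 5 of 6 pet, 4 of 6 atp and 7 of 10 ndh genes and in rbcL. Across the 43 members the changes in the lab lines correlated with Pearson's r = 0.26 and Spearman's rho = 0.41, and those in the wild lines with r = -0.38 and rho = 0.11; these are descriptions over genes that share arrays and transcripts. At least 2-fold lower in both lab lines were 8 members: psaA, psaC, psbB, psbC, psbD, atpF, atpH (the membrane ring subunit c) and atpI. That held for 0.652% of all probe sets tested and for 0 of the other 26 plastid-encoded genes. Members such as petN, rbcL, psbA, psaI and ndhJ were at least 2-fold lower in the calcifuge and not in the calcicole.

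The calcifuge array at 12.5 mM is also the one with the 25S ribosomal RNA signal of 19.8, where the same line read 126 at 1 mM. In the calcicole at 12.5 mM that control read 90.4, while 41 of 43 members were lower. PYK10 was higher at 12.5 mM in both lab lines, from 49.2 to 203 in the calcicole and from 247 to 830 in the calcifuge, and was also higher at 12.5 mM in the wild lines, from 132 to 179 and from 228 to 329. It was the only 1 of the 3 root markers higher in both lab lines: EXPA7 read 21.6 then 21.6 in the calcicole and 33.5 then 12.1 in the calcifuge, and EXPA18 read 25.2 then 8.86 and 24.7 then 24.9. The green tissue marker RCA read 4822 then 3463 in the calcicole, 4906 then 3534 in the calcifuge, 5698 then 5677 in the high-pH ecotype, and 6387 then 4897 in the low-pH ecotype, so it was lower at 12.5 mM in both lab lines and in the low-pH ecotype. The part of ribosomal RNA, of green tissue and root RNA, of RNA labelling and of RNA quality in the members' changes was not tested. Across the 43 members, which share arrays and transcripts, the change correlated with the mean log2 signal at 1 mM with r = 0.07 and rho = 0.05 in the calcicole, 0.1 and 0.15 in the calcifuge, -0.33 and -0.3 in the high-pH ecotype, and -0.31 and -0.59 in the low-pH ecotype. The median change of the 21 lower-signal members and of the 22 higher-signal members was -0.68 and -0.6 in the calcicole, -1.45 and -0.91 in the calcifuge, 0.19 and 0.14 in the high-pH ecotype, and 0.44 and -0.04 in the low-pH ecotype (log2).

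**Figure D3:**
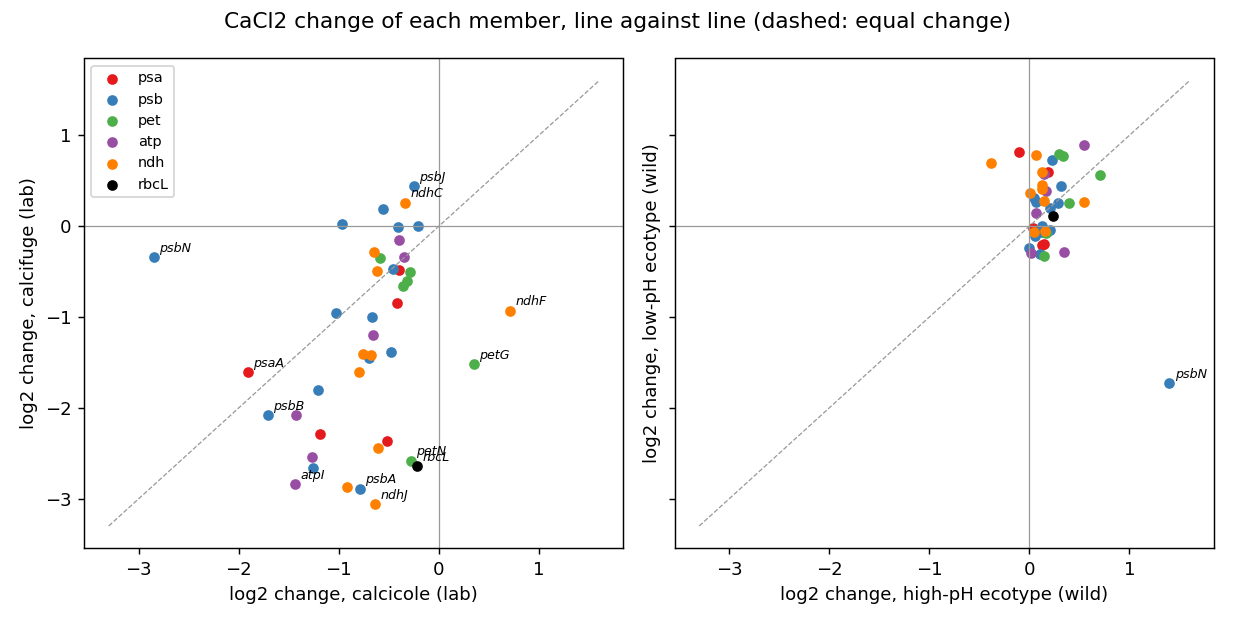
Log2 change of each member from 1 to 12.5 mM CaCl2 in 1 line against the other of the same origin, lab lines on the left and wild lines on the right, coloured by gene group; the dashed line marks equal change. In the lab lines 36 of 43 points lie below 0 on both axes, and 29 lie below the dashed line, while the wild points gather near or above 0 apart from psbN.

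Neighbouring genes of 1 transcription unit did not always share their change. The 4 genes of the atpI-atpH-atpF-atpA unit had a median of -1.35 in the calcicole and -2.31 in the calcifuge, with atpA, for the catalytic subunit alpha, closest to 0 at -0.66 and -1.2. The other ATP synthase unit, atpB-atpE, had medians of -0.38 and -0.24. In the psbD-psbC-psbZ unit, psbD and psbC had lower changes than the small subunit gene psbZ, which had -0.48 and -1.38.

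In the psbB-psbT-psbH-petB-petD unit the lab changes were -1.71 and -2.08 for psbB, -0.7 and -1.45 for psbT, -1.03 and -0.96 for psbH, -0.59 and -0.35 for petB and -0.36 and -0.66 for petD. The first gene of the unit was thus the lowest in each lab line. The 7 genes of the ndhH to ndhD unit, which includes psaC, were all lower in both lab lines, with medians of -0.68 and -1.42. Their calcicole changes were alike (-1.19 to -0.61), and their calcifuge changes ran from -0.28 for ndhI to -2.44 for ndhD. Which part of a transcript each probe set reads was not used here.

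**Figure D4:**
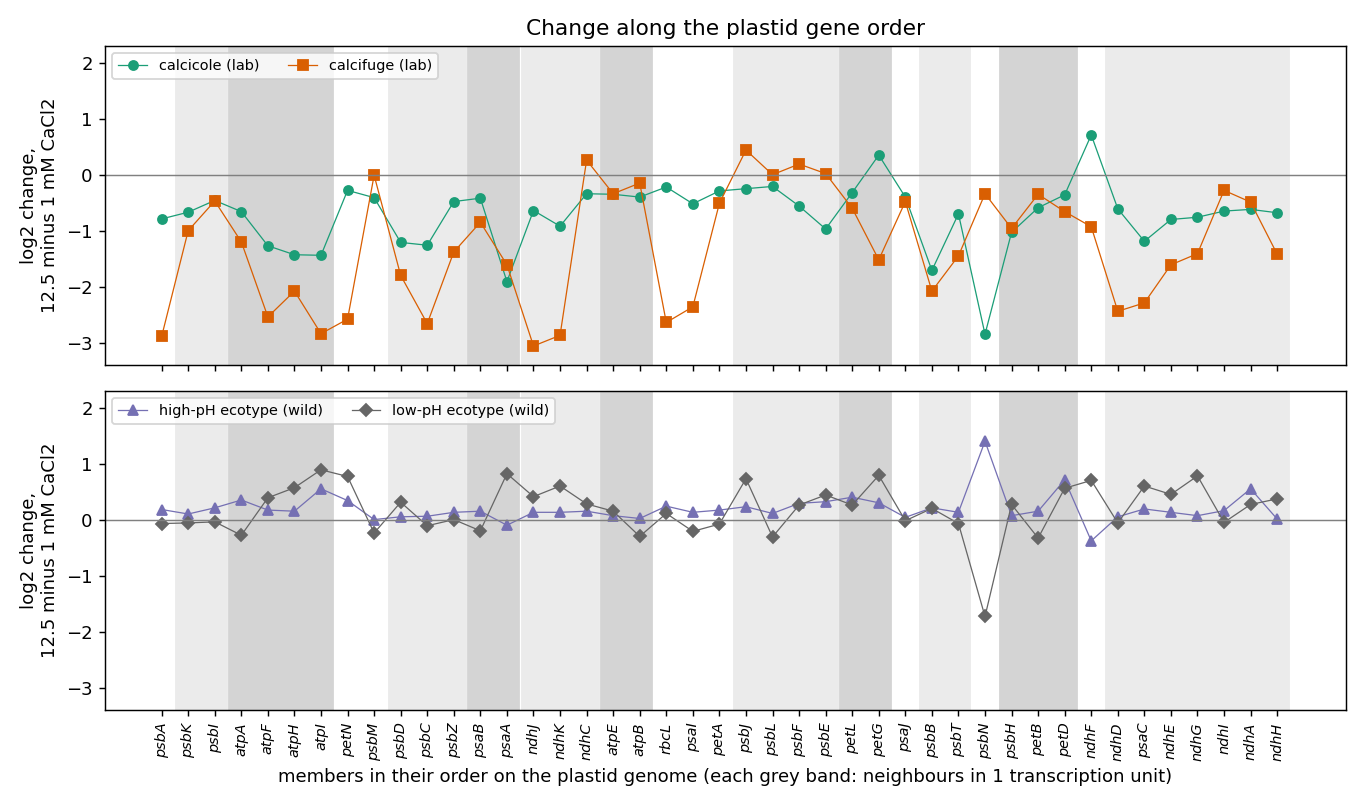
Log2 change from 1 to 12.5 mM CaCl2 (vertical axis) of the 43 members in their order on the plastid genome (horizontal axis, not to scale), lab lines above and wild lines below; each grey band joins neighbours of 1 transcription unit, and the bands on both sides of psbN are the same unit. The calcifuge is lowest at ndhJ (-3.06) and near or above 0 at ndhC and at psbJ, psbL, psbF and psbE, and the calcicole is lowest at psbN (-2.85).

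Set against the wild lines at each dose, the lab lines were not low throughout. At 1 mM both lab arrays lay above both wild arrays in 16 of 43 members, against 18.7% of all probe sets tested, and below them in 2, against 19.6%. At 12.5 mM both lab arrays lay below both wild arrays in 32 of 43, against 22.9%, and above them in 0, against 28.3%. The crossing from above at 1 mM to below at 12.5 mM was seen in 9 members: 2 psa, 1 psb, 1 pet, 2 atp and 3 ndh genes. It was seen in 0.616% of all probe sets tested and in 11 of the other 26 plastid-encoded genes. Relative to each gene's own mean over the 8 arrays, the median member stood at 0.22 and -0.39 in the calcicole, 0.33 and -0.81 in the calcifuge, 0.0 then 0.18 in the high-pH ecotype, and 0.18 then 0.29 in the low-pH ecotype (log2, 1 and 12.5 mM).

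Averaged over the doses, no member passed the test for a difference between lines. In the additive fit of line and dose, lab minus wild was negative in 36 of 43 members, with a median of -0.31, and no member was called, where limma called 15.9% of all probe sets. This fit, used for each comparison of lines here, has 1 dose effect for all lines. The unlike dose responses of the members in lab and wild lines therefore widen its errors. The lack of calls does not show that the lines had equal levels. The smallest adjusted p belonged to ndhH, an NDH subunit gene, at -0.93 ± 0.28 (limma adjusted p = 0.0645), followed by psbD at -1.06 ± 0.35 (adjusted p = 0.0778) and psbJ, a small photosystem II subunit gene, at 0.56 ± 0.19 (adjusted p = 0.0822). Without the calcifuge array at 1 mM, which leaves that line at 12.5 mM alone, 12 members passed, all lower in the lab lines, among them rbcL at -1.26 ± 0.18 (limma adjusted p = 0.0111), and without the calcifuge line only ndhD passed. Over all alternatives the smallest adjusted p among the members ran from 0.0084 to 0.18. At an unadjusted p under 0.05 limma had 8 members, 7 of them lower.

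For calcicole minus calcifuge 0 members were called, where limma called 4.53% of all probe sets, and 0 members had an unadjusted p under 0.05. The largest difference was that of rbcL, 1.02 ± 0.64 (limma adjusted p = 0.389); without the calcifuge array at 1 mM it was 2.36 ± 0.29 (adjusted p = 0.0228), and psbA, petN, psaI and ndhJ passed as well, with the smallest adjusted p among the members at 0.0228 to 0.549 over the alternatives. For high-pH minus low-pH ecotype 0 members were called, where limma called 0.33% of all probe sets, with 0 members at an unadjusted p under 0.05 and a median of -0.12.

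The dose effect was also compared between the calcicole side (calcicole and high-pH ecotype) and the calcifuge side (calcifuge and low-pH ecotype), a grouping taken from the names of the lines. The difference was positive in 33 of 43 members, with a median of 0.22, and limma called 0.0% of all probe sets and no member; at an unadjusted p under 0.05 it had 805 probe sets and 0 members. The estimate was largest for rbcL, at 1.28 ± 0.84 (limma adjusted p = 0.867). The errors of this comparison were wide where the lab and wild lines of a side differed: for psbB it was 0.19 ± 0.89.

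The other 26 plastid-encoded genes, for ribosomal proteins, the plastid RNA polymerase and other functions, had medians close to those of the members: -0.59 in the calcicole, -1.44 in the calcifuge, 0.38 in the high-pH ecotype and 0.11 in the low-pH ecotype. The fitted lab minus wild difference was negative in all 26, with a median of -1.17, and none was called. The lowest single change was that of accD, a subunit of acetyl-CoA carboxylase, at -3.17 in the calcifuge.

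Pooled into 1 list, nuclear genes for the same complexes and their factors had smaller median changes than the members in both lab lines. Of 21 named on the array 19 were tested, with median changes of -0.24 and -0.33 in the calcicole and calcifuge and 0.1 and 0.33 in the wild lines, and the median of the lab minus wild difference was -0.42, with none called. The calcicole and calcifuge medians were -0.67 and -0.69 for 2 photosystem I genes, and -0.6 and -0.48 for 2 photosystem II genes. They were -0.52 and -0.46 for 3 light-harvesting antenna genes. For 7 genes of NDH subunits or factors (NdhL, NdhN, NdhS, PIFI, CRR21, CRR41 and CRR42) they were -0.02 and -0.06. For 2 ATP synthase genes they were 0.27 and -0.52. Of these, ATPC1 had changes of -0.09 and -0.3 at signals of 2122 to 3917. The other, ATPC2, had 0.64 and -0.74 at low signals of 22.2 to 54.5. In the calcicole the nuclear photosystem medians lay near those of psa and psb (-0.52 and -0.7), and in the calcifuge above them (-1.61 and -0.96). Lowest of the 19 in the lab response was PSAN, a photosystem I subunit, at -0.98 ± 0.23 (limma adjusted p = 0.281). Over both doses 6 of the 19 were called lower in the lab lines: NdhL, PSAN, PSBY, ATPC1, CRR21 and HCF101, an iron-sulphur cluster factor of photosystem I. Over all 13647 probe sets limma called 1053 lower and 1116 higher in that comparison. The p-values of that comparison leave out the spread between lines of the same origin. The signal of CRR21 was low, at 22.7 to 56.9. The largest difference of the 6 was that of NdhL, an NDH subunit, at -1.13 ± 0.21 (limma adjusted p = 0.0169). Of 18 probe sets for mitochondrion-encoded genes only 7 passed the filter, with medians of -0.16, -0.06, -0.01 and 0.28 in the 4 lines. In the calcifuge 4 of these were lower and 3 higher at 12.5 mM. The lowest there was nad4, at -1.26 (464 then 192). Over both doses 2 of the 7 were called higher in the lab lines. Whether plastid and nuclear genes differ in their response was not tested.

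**Figure D5:**
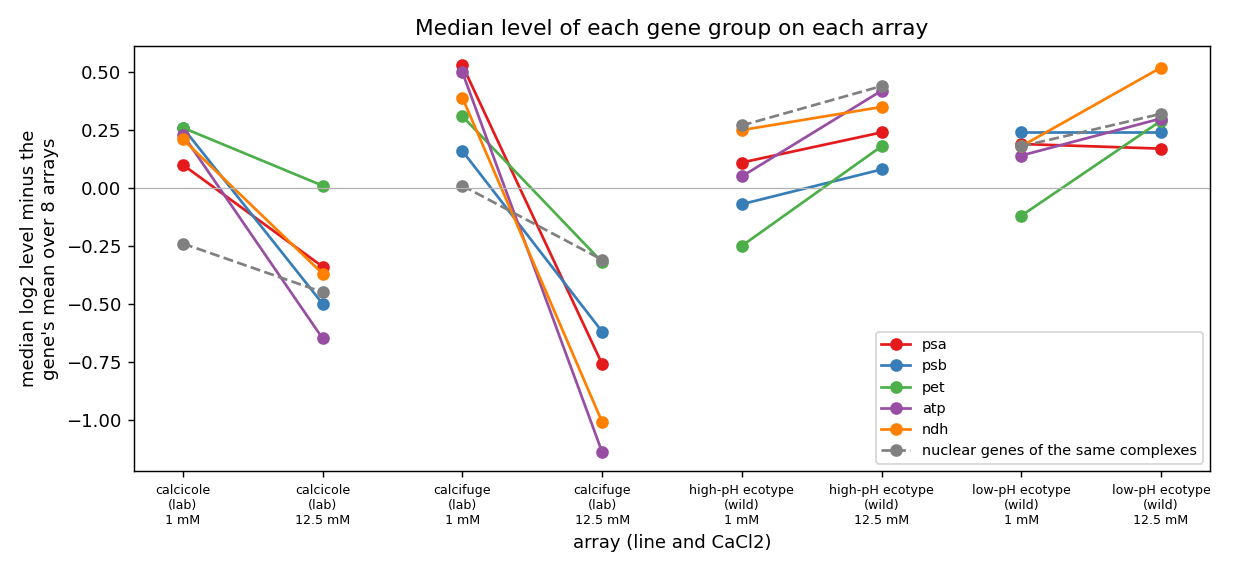
Median log2 level of each plastid gene group, relative to each gene's own mean over 8 arrays (vertical axis), on each array (horizontal axis). The 21 nuclear genes for the same complexes and their factors are a dashed grey line, and lines join the doses of 1 plant line. Every plastid group is lower at 12.5 than at 1 mM in both lab lines, the nuclear median is lower too, and the calcifuge at 12.5 mM holds the lowest point of each plastid group.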

How the data were processed

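Whole-plant RNA was measured on 8 arrays, and the primer used to label it is not given in the labels. Each deposited value is a signal intensity of 1 probe set that the authors obtained from MAS5, per the submitters' processing notes; its version and settings are not given in the sources used here, and detection calls were not used here. The 64 controls among 22810 probe sets were set aside. Before log2, 2.507 was added to each signal as a pseudocount (their 10th percentile), so fold changes of low signals are understated, and the lowest 40% by mean were left out. Folds quoted as such are ratios of signals after the pseudocount was added. Models were fitted in R 4.3.3 by limma 3.58.1, with Benjamini-Hochberg adjustment over 13647 probe sets; the additive fit of line and dose has 3 residual degrees of freedom and the fits of dose within origin or soil side have 2. Members were matched through gene identifiers to TAIR10.1, used only for names, locus tags and gene order; sequences were not used here. Transcription units and gene roles are general knowledge. The members given with all 8 signals are, in each group, the 2 with the largest and the 1 with the smallest difference in dose response between lab and wild lines, and rbcL. Other members were named without such a rule. The members and lists were chosen with earlier results of these data known. Nothing says that arrays came from separate plantings, so p-values measure the spread between these samples. For differences between lines, that spread is what the additive fit of line and dose leaves over. It does not include the spread between lines of the same origin. Alternatives changed the scaling, pseudocount, filter, variance model, line block, probe sets, lines and arrays.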

Additional observations from a re-analysis of the deposited data

Results flagged for a closer look

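The groups pet, atp and ndh and the gene rbcL had median changes below 0 in both lab lines and above 0 in both wild lines. The lab minus wild difference of these medians was -0.83 for pet, -1.52 for atp, -1.29 for ndh and -1.61 for rbcL, on the log2 scale, and the difference of group medians itself was not tested.

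In rbcL the lab calcifuge stood far from the other 3 lines, with a change of -2.64 and a level at 12.5 mM of -2.12 relative to the mean of the gene over the 8 arrays. The 25S ribosomal RNA control read 19.8 on the same array, far below the other 3 lines at that dose. These are 3 of 19 sets of 4 values screened with Dixon's 95% critical value, which chance passes in about 5% of sets. The 25S ribosomal RNA control was added to the screen after its values were seen, and the other sets share arrays.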

How the results depend on the processing

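By replicate number, no paired analysis was possible because every sample carries number 1. The 2 doses of each line were paired in the dose comparisons by the line block, and without it the smallest adjusted p among the members in the lab response was 0.363 instead of 0.11. Leaving out 1 array of a line removes that line from the dose comparisons. The direction of the group medians of the lab minus wild difference was kept under every alternative run, and 40 to 43 of the 43 members kept a lower lab response under the other settings and 39 to 42 when a line or array was left out. With lines or arrays left out, the medians ran from -1.97 to -0.49 for psa, -1.06 to -0.84 for psb, -1.11 to -0.57 for pet, -1.84 to -1.13 for atp and -1.72 to -0.89 for ndh. Members with small differences changed sign: atpB was 0.08 with quantile normalization and 0.03 without the high-pH ecotype, psbL was 0.05 with quantile normalization, 0.1 without the lab calcicole and 0.21 without the high-pH ecotype, and ndhC was 0.05 without the lab calcicole. With lines or arrays left out atpB ran from -0.3 to 0.03, psbL from -0.22 to 0.21 and ndhC from -0.56 to 0.05. The cause was not tested.

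Counts over all probe sets moved more. The response in all lines had 2 calls, and 1 with median centring, 0 without the filter, 0 without the line block, 30 with a pseudocount of 16, 40 with a variance trend and robust moderation, 0 without probe sets ending in _s_at or _x_at, and 0 to 78 with lines left out. The lab response had 0 calls, 1 with a pseudocount of 16, 13 with a variance trend and robust moderation, and 8 to 89 with lines left out. With the lab calcicole left out 13 members passed in the lab response, which then rests on the lab calcifuge alone, with its spread taken from the wild lines. The wild response had 0 to 90 calls with lines left out, the lab minus wild difference 0 to 1, and the soil side difference 0 to 5 and 1 with a variance trend and robust moderation. Without the filter the calls went from 618 to 129 for lab calcicole minus lab calcifuge, from 45 to 12 for high-pH minus low-pH ecotype and from 2169 to 460 for lab minus wild lines; with lines or arrays left out they ran from 123 to 509, from 9 to 46 and from 518 to 2240. A comparison of 2 lines gave no value where 1 of its lines was left out. With 1 array per line and dose, no difference within 1 line can be set against replicate error.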
